A study of Mus with 4 samples.

Results

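Transcript levels of the genes by which the metanephric mesenchyme induces the ureteric bud were examined in *Six2*-positive nephron progenitors of mouse kidneys. The genes were *Gdnf*, *Ret*, *Gfra1*, *Wnt11*, *Slit2*, *Robo2*, *Itga8*, *Npnt* and *Gdf11*, and they were chosen by name. Every non-control probe whose accession carried one of these symbols was taken, whatever its value, which gave 15 probes for 8 of the 9 genes, out of 16358 genes named on the arrays. For *Gdf11* no probe was found by accession, and the gene was not analysed here. The cells were GFP-positive cap mesenchyme cells that the study sorted by FACS at embryonic day 15.5. *Mut* cells came from Six2 CreEGFP+; PRR flox/flox kidneys, and *WT* cells from littermates that were Six2 CreEGFP+ PRR+/+, so both groups carried the Cre transgene. *PRR* (*Atp6ap2*) encodes the prorenin receptor, and the transgene is active in nephron progenitors and the epithelia that descend from them, so *PRR* was not targeted in the ureteric bud itself. On arrays 1, 2 and 3 a *Mut* pool labelled with Cy3 shared the array with the like-numbered *WT* pool labelled with Cy5, and each pool joined the kidneys of several embryos. The other array, the *WT* vs *WT* array, set *WT* pool 2 in Cy3 against *WT* pool 1 in Cy5.

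In the developing kidney GDNF, a ligand secreted by the mesenchyme, signals through the receptor tyrosine kinase RET and its co-receptor GFRA1 at the tips of the ureteric bud, which then grow and branch. WNT11 is made at the tips in response and in turn sustains *Gdnf* in the cap mesenchyme. SLIT2 and its receptor ROBO2 restrict the region that expresses *Gdnf*, while nephronectin in the basement membrane of the bud binds the integrin chain encoded by *Itga8* on the mesenchyme and helps to maintain *Gdnf*. The question asked of these probes is whether this circuit differed between progenitors with and without *PRR*.

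Each of 41166 probes was tested with limma for a mean log2 *Mut*/*WT* other than 0 over arrays 1 to 3, with Benjamini-Hochberg adjustment. A call needed more than a 1.5-fold difference as well as an adjusted *P* under 0.05. At these thresholds 227 probes (0.551%) were higher and 600 (1.46%) lower in *Mut*, whereas the deposited log ratios under the same test gave 1489 and 1216. The median signal of the 8 channels lay between 65.5 and 92 on the linear scale, and the share of probes well above background lay between 45.1% and 58.3%. *Atp6ap2* itself, held by 1 probe, had log2 *Mut*/*WT* ratios of -0.08, -0.19 and -0.25 on arrays 1, 2 and 3 (mean -0.17, SE 0.055, adjusted *P* = 0.0351, limma). It had -0.19 on the *WT* vs *WT* array and 0.02 with a dye term taken from there, so this probe does not separate the genotypes, and each direction given here is taken from the dyes in the labels. By RT-PCR the study measured less *PRR* mRNA in sorted *Mut* than in *WT* cells. The study lists *Lhx1*, *Spry1* and *Eya1* as lower in *Mut*, opposite to the direction that these labels give, so the direction of these genes is not settled. Its place on the transcript was not determined. The dyes were never exchanged, so on arrays 1 to 3 genotype and dye cannot be told apart. The *WT* vs *WT* array stood apart from the other *WT* channels: *WT* pool 1 in Cy5 differed by more than 1.5-fold between array 1 and that array at 398 of 41166 probes. The level or the ratio on that array is given for each member probe well above background in *Mut* and for each pathway probe called. Whether the pools came from separate litters is not given in the sources used here, so *P* values measure the spread between these arrays.

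None of the 15 probes was called in either direction (limma, adjusted *P* under 0.05 and over 1.5-fold). At an unadjusted *P* under 0.05 with the same fold minimum the count was also 0, and it was 0 by the methods' *t*-test, with and without adjustment, a test that after adjustment called 0 of all probes. At an adjusted *P* under 0.05 without a fold minimum, 5 probes (33.3%) were lower and 2 (13.3%) higher in *Mut*, beside 16.4% lower and 13.2% higher of all probes tested. The 5 lower probes were 2 of *Gfra1*, 1 of *Robo2* and 2 of *Npnt*, and the 2 higher probes were of *Itga8*. The median log2 *Mut*/*WT* of the 15 probes was -0.05, against -0.000916 for all probes tested, and their values ran from -0.42 to 0.27. The sign of that median rested on array 3, without which it was 0.02, while it was -0.09 without array 1 and -0.10 without array 2. On the *WT* vs *WT* array, where no genotype differs, the same probes ran from -0.16 to 0.14 with a median of -0.02. When that array supplied a dye term for each probe, 0 of the 15 probes reached an adjusted *P* under 0.05 (limma), and 2 were higher and 1 lower at an unadjusted *P* under 0.05. Of all 41166 probes tested, 220 were then higher and 235 lower at an adjusted *P* under 0.05. At an unadjusted *P* under 0.05 the numbers were 2647 and 3387. A count of 0 among 15 probes lies near the adjusted share.

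**Figure D1:**
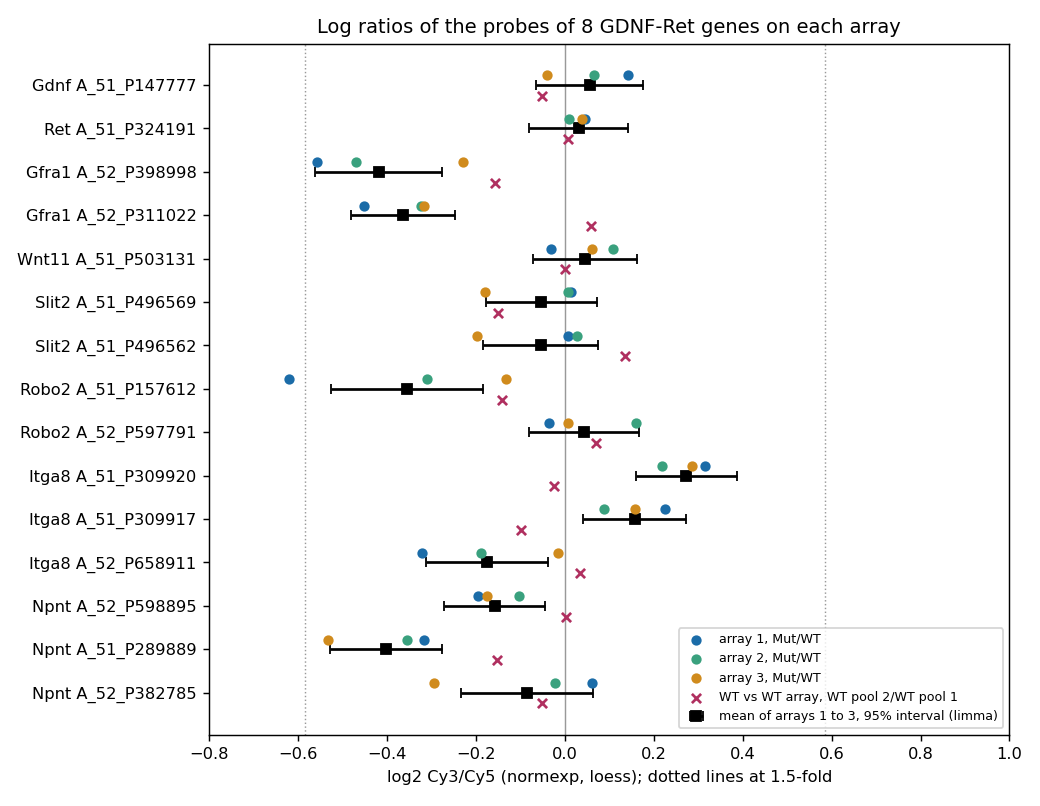
Log2 Cy3/Cy5 ratio (x axis) of each of the 15 probes (y axis) on arrays 1 to 3 (circles, *Mut*/*WT*) and on the *WT* vs *WT* array (crosses), with the mean of arrays 1 to 3 and its 95% interval from limma (squares and bars). All means lie within the dotted lines at 1.5-fold, both *Gfra1* probes lie at -0.42 and -0.36, and the brightest *Itga8* probe lies at 0.27, a direction that turned when arrays were centred on their median without loess. That setting lowered the bright member probes together.

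Sorted cells were checked against marker genes of the cell types of the kidney. Of 13 nephron progenitor probes, *Six2* among them, 12 were well above background in all 8 channels. Of 19 ureteric bud probes 8 were, while the probes of *Gata3*, *Wnt7b* and *Wnt9b*, genes of the bud epithelium, were well above background in 4, 2 and 1 of the 8 channels. The summed level of the ureteric bud markers was 10.70 to 10.74 in *Mut*, 10.70 to 10.74 in *WT* and 10.69 and 10.71 on the *WT* vs *WT* array, on the log2 scale. The summed ureteric bud level was therefore flat over all 8 channels. The brightest probes, of *Krt18* (mean log2 signal 8.84) and *Sox9* (8.01), weigh most in this sum. A flat sum thus says little about bud genes near background. The summed nephron progenitor level was 14.63 to 14.73 in *Mut* and 14.80 to 14.89 in *WT* of arrays 1 to 3. The probe of *Crym*, with means of 13.7 in *Mut* and 14.0 in *WT*, weighs most in this sum. On the *WT* vs *WT* array the sum was 14.69 in *WT* pool 2 in Cy3, within the range of the *Mut* pools in that dye, and 14.80 in *WT* pool 1 in Cy5. Of the 13 probes 7 were lower and 1 higher in *Mut* at an adjusted *P* under 0.05. The dimmer probes of *Meox1* (-0.75) and *Osr1* (-0.66) were called lower, while their brighter probes (-0.49 and -0.35) were not. The part of these differences in the lower *Gfra1* and *Robo2* values was not tested. In RNA from sorted pools, fewer cells of a type and less RNA per cell cannot be told apart.

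*Gdnf*, the ligand of the circuit, did not pass the test. Its single probe (A_51_P147777) was well above background in all 8 channels. The normalized log2 level was 7.24, 7.42 and 7.36 in *Mut* pools 1, 2 and 3, and 7.10, 7.36 and 7.40 in the *WT* pools. The *Mut* and *WT* levels overlapped, with *WT* pool 1 the lowest channel. On the *WT* vs *WT* array the level was 7.45 in *WT* pool 2 and 7.50 in *WT* pool 1, above every channel of arrays 1 to 3. The log2 *Mut*/*WT* ratios were 0.14, 0.06 and -0.04 and averaged 0.06 (SE 0.055, 95% interval -0.07 to 0.18, adjusted *P* = 0.484, limma), and the mean was -0.22 (adjusted *P* = 0.436) when arrays were centred on their median without loess. The same *WT* pool 1 in the same dye read 0.40 higher on the *WT* vs *WT* array than on array 1, a larger difference than 96.1% of all probes showed between these readings.

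The receptors gave different pictures. *Ret*, which encodes the signalling receptor and is a gene of the bud tip, was not well above background in any of the 8 channels. Its probe (A_51_P324191) was printed as 10 spots per array, whose signals lay between 49 and 68 in Cy3 and between 50.5 and 69 in Cy5 on the linear scale, where the negative control spots had medians of 49.5 to 60.5. No fold change is given for it. It was not well above background in *Mut* and *WT* alike.

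*Gfra1*, the co-receptor that binds GDNF, was lower in *Mut* at both of its probes, under 1.5-fold. At the first (A_52_P398998) the level was 8.25, 8.18 and 8.49 in *Mut* pools 1, 2 and 3. In *WT* it was 8.81, 8.65 and 8.72. Each *Mut* pool lay below each *WT* pool, with 0.16 between the nearest pair. The log2 ratios were -0.56, -0.47 and -0.23 and averaged -0.42 (SE 0.065, adjusted *P* = 0.000599, limma), or 1.34-fold lower. On the *WT* vs *WT* array the levels were 8.47 in *WT* pool 2 and 8.63 in *WT* pool 1, and the ratio was -0.16. The second probe (A_52_P311022) read 7.74, 7.98 and 7.95 in *Mut*, and 8.19, 8.30 and 8.27 in *WT*. It too parted the groups, with ratios of -0.45, -0.32 and -0.32 that averaged -0.36 (SE 0.054, adjusted *P* = 0.000427, limma), or 1.29-fold lower. Its levels on the *WT* vs *WT* array were 8.04 and 7.99, closer to the *Mut* than to the *WT* pools, with a ratio of 0.06. *WT* pool 1 read lower on the *WT* vs *WT* array than on array 1, with differences of -0.18 and -0.20 at the 2 probes. In the same dye, Cy3, the *Mut* mean differed from *WT* pool 2 of that array by -0.17 and -0.15. With the dye term the means were -0.26 (SE 0.13, adjusted *P* = 0.385) and -0.42 (SE 0.11, adjusted *P* = 0.097). *Gfra1* was below 0 at both probes under every alternative tried, between -0.92 and -0.26 at the first and between -0.80 and -0.32 at the second. The adjusted *P* also missed the threshold at both probes with normexp without an offset (0.134 and 0.118), with median centring (0.0887 and 0.106) and with the methods' *t*-test (0.207 and 0.154), and at the first with the deposited log ratios (0.104).

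**Figure D2:**
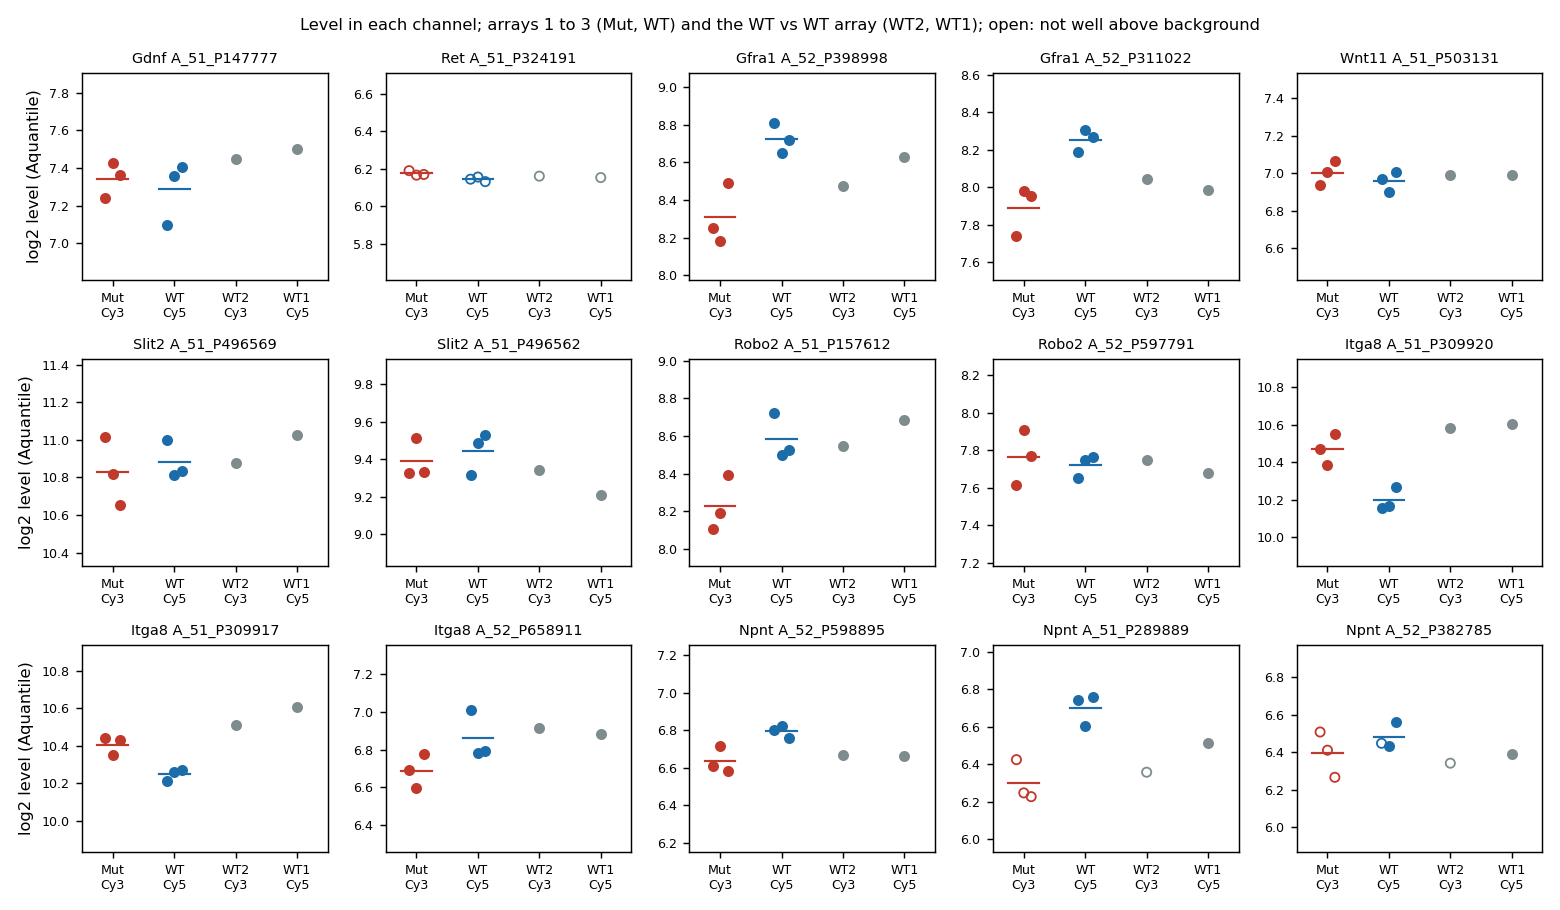
Normalized log2 level (y axis, 1 panel per probe, each spanning 1.1 units) in the *Mut* pools in Cy3 and the *WT* pools in Cy5 of arrays 1 to 3, and in *WT* pool 2 (Cy3) and *WT* pool 1 (Cy5) of the *WT* vs *WT* array, with lines at the means and open circles for channels not well above background. *Mut* and *WT* of arrays 1 to 3 part without overlap at *Gfra1*, but both *WT* vs *WT* channels lie below the range of those *WT* pools there. At the 2 bright *Itga8* probes both *WT* vs *WT* channels lie above the *Mut* pools.

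Over all 15 probes, the levels of the 3 *Mut* pools lay below those of the 3 *WT* pools without overlap at 6 probes (40.0%) and above them at 3 (20.0%), beside 20.5% and 17.5% of all probes tested. The *Ret* probe, which no channel measured above background, is among the 3 higher ones with a gap of 0.01. At *Robo2* (A_51_P157612) and at the dimmest *Itga8* probe both *WT* vs *WT* channels lay within the range of the *WT* pools of arrays 1 to 3. At the other 4 lower probes both lay below that range.

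*Wnt11*, the target of RET signalling at the bud tip, was measured above background in all 8 channels of the sorted cells and did not pass the test. Its probe (A_51_P503131) read 6.94, 7.01 and 7.07 in *Mut* pools 1, 2 and 3. In *WT* it read 6.97, 6.90 and 7.01. The groups overlapped, and both *WT* vs *WT* channels read 6.99. The ratios were -0.03, 0.11 and 0.06 and averaged 0.05 (SE 0.053, 95% interval -0.07 to 0.16, adjusted *P* = 0.561, limma), and the mean was -0.14 without loess.

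*Slit2*, the secreted ligand that limits the *Gdnf* domain, did not pass the test at either of its probes. The first (A_51_P496569) read 11.01, 10.82 and 10.66 in *Mut*, and 11.00, 10.81 and 10.84 in *WT*. The second (A_51_P496562) read 9.32, 9.51 and 9.33 in *Mut*, and 9.32, 9.49 and 9.53 in *WT*. At each probe the groups overlapped, and pool 3 gave the ratio farthest from 0, at -0.18 and -0.20. The means were -0.05 (SE 0.057) and -0.05 (SE 0.059), both with an adjusted *P* of 0.522 (limma). The 95% intervals were -0.18 to 0.07 at each, while the ratios on the *WT* vs *WT* array were -0.15 and 0.14. Without array 3 the means were 0.01 and 0.02, so their sign rested on that array. When arrays were centred on their median without loess they were -0.67 (adjusted *P* = 0.192) and -0.62 (adjusted *P* = 0.21), past 1.5-fold but not past the test.

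*Robo2*, the receptor of SLIT2 on the mesenchyme, gave unlike values at its 2 probes. The first (A_51_P157612) read 8.10, 8.19 and 8.39 in *Mut* pools 1, 2 and 3. In *WT* it read 8.72, 8.50 and 8.53. The groups did not overlap, and the levels of 8.55 and 8.69 on the *WT* vs *WT* array lay with the *WT* pools. The ratios of -0.62, -0.31 and -0.13 averaged -0.35 (SE 0.078, adjusted *P* = 0.00529, limma), or 1.28-fold lower in *Mut*, and that on the *WT* vs *WT* array was -0.14. The spread between arrays was the widest of the 15 probes (SD 0.25), and without array 1 the mean was -0.22. With the dye term it was -0.21 (SE 0.16, adjusted *P* = 0.581), and with median centring in place of loess -0.84 (adjusted *P* = 0.109). The deposited log ratios (adjusted *P* = 0.19), normexp without an offset (0.186) and the methods' *t*-test (0.298) did not pass either. The second probe (A_52_P597791) read 7.61, 7.91 and 7.77 in *Mut* and 7.65, 7.75 and 7.76 in *WT*, which overlapped. Its mean ratio was 0.04 (SE 0.056, 95% interval -0.08 to 0.17, adjusted *P* = 0.597, limma), beside 0.07 on the *WT* vs *WT* array. Which transcripts each probe detects was not determined.

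*Itga8*, the integrin chain that receives nephronectin, was higher in *Mut* at its 2 bright probes under loess. The brightest (A_51_P309920) read 10.47, 10.39 and 10.55 in *Mut* pools 1, 2 and 3, and 10.16, 10.17 and 10.27 in *WT*. The groups did not overlap. The ratios of 0.32, 0.22 and 0.29 averaged 0.27 (SE 0.052, adjusted *P* = 0.00219, limma), or 1.21-fold higher, but the mean was -0.33 (adjusted *P* = 0.376) when arrays were centred on their median in place of loess. The second probe (A_51_P309917) read 10.44, 10.35 and 10.43 in *Mut*, and 10.22, 10.26 and 10.27 in *WT*. Its ratios of 0.23, 0.09 and 0.16 averaged 0.16 (SE 0.053, adjusted *P* = 0.0445, limma), and -0.45 without loess, and the mean no longer passed with any 1 of the 3 arrays left out (0.12 to 0.19). The *WT* vs *WT* array went with neither group of *WT* readings. *WT* pools 2 and 1 read 10.58 and 10.61 there at the brightest probe, and 10.51 and 10.61 at the second. All 4 of these *WT* readings lay above every *Mut* pool, and the ratios there were -0.02 and -0.10. With the dye term the means were 0.30 (adjusted *P* = 0.213) and 0.26 (adjusted *P* = 0.294, limma). *WT* pool 1 alone read 0.45 and 0.39 higher on that array than on array 1, larger differences than at 97.3% and 95.9% of all probes. In the same dye, Cy3, the *Mut* mean lay 0.11 and 0.10 below *WT* pool 2 of that array. The dimmest *Itga8* probe (A_52_P658911) read 6.69, 6.59 and 6.78 in *Mut*, and 7.01, 6.78 and 6.79 in *WT*. Its mean ratio of -0.18 (SE 0.063, adjusted *P* = 0.0548, limma) pointed the other way. It did not pass the test, and its ratio on the *WT* vs *WT* array was 0.03. It passed without background subtraction (adjusted *P* = 0.036), among probes above background alone (0.0456) and without array 3 (0.00355), while the mean was -0.10 without array 1.

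*Npnt* encodes nephronectin, the ligand of that integrin, which the bud epithelium deposits. All 3 probes were dim. The brightest (A_52_P598895) was well above background in all 8 channels and read 6.61, 6.72 and 6.58 in *Mut*, and 6.80, 6.82 and 6.76 in *WT*. Its ratios of -0.20, -0.10 and -0.18 averaged -0.16 (SE 0.052, adjusted *P* = 0.0392, limma), or 1.12-fold lower in *Mut*, and did not pass with any 1 of the 3 arrays left out (-0.19 to -0.14). Both *WT* pools read 6.67 and 6.66 on the *WT* vs *WT* array, within the range of the *Mut* pools. The next probe (A_51_P289889) was not well above background in any *Mut* channel and was above it in all 3 *WT* channels. It was at least 1.22-fold higher in *WT*, from a mean of 6.70 in *WT* against 6.41, the mean over arrays of the lowest level that passed as above background in Cy3 or, where higher, the probe's own. The measured *Mut* mean was 6.30, and the fit gave an adjusted *P* of 0.000358 (limma). That bound is open to dye bias, since the dyes were not exchanged, and in Cy3 of the *WT* vs *WT* array *WT* pool 2 was not above background either, where the ratio was -0.15. The deposited log ratios gave a mean of -2.58 at this probe, and it was then called lower (adjusted *P* = 0.0434), but with *Mut* below background this value is not a measured fold. The third probe (A_52_P382785) was above background in 0 of 3 *Mut* and 2 of 3 *WT* channels. It did not pass the test (adjusted *P* = 0.374, limma).

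The bud markers and the *Npnt* probes can be set side by side across the channels. Where *Npnt* read lower in *Mut*, the summed ureteric bud level was 10.70, 10.72 and 10.74 in *Mut* pools 1, 2 and 3 and 10.70, 10.74 and 10.72 in the *WT* pools. The bud level overlapped between the genotypes, though this sum says little about bud genes near background. Markers of other cells did part the genotypes on arrays 1 to 3. The summed erythroid level was 11.81 to 11.88 in *Mut* and 10.82 to 10.95 in *WT*, but 11.84 and 12.02 in the *WT* pools of the *WT* vs *WT* array. The summed level of differentiating nephron markers was 11.51 to 11.59 in *Mut* and 11.01 to 11.09 in *WT*, but 11.61 and 11.63 on the *WT* vs *WT* array. Of this list, the study reports *Lhx1*, *Jag1*, *Fgf8*, *Hes5* and *Ccnd1* as lower in *Mut*, the opposite direction. For *Lhx1*, *Jag1* and *Fgf8* it reports this by RT-PCR as well. Of the stroma markers, 9 of 17 probes were higher and 4 lower in *Mut* at an adjusted *P* under 0.05, with summed levels of 13.81 to 14.10 in *Mut*, 13.68 to 13.79 in *WT* and 13.79 and 13.67 on the *WT* vs *WT* array. The *Gdnf* probe and the 2 bright *Itga8* probes shared with the erythroid and differentiating nephron markers that *WT* pool 1 read higher on the *WT* vs *WT* array than on array 1, whereas the dimmest *Itga8* probe gave a difference of -0.13 between these readings. The part of these cells in the values of the members was not tested.

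**Figure D3:**
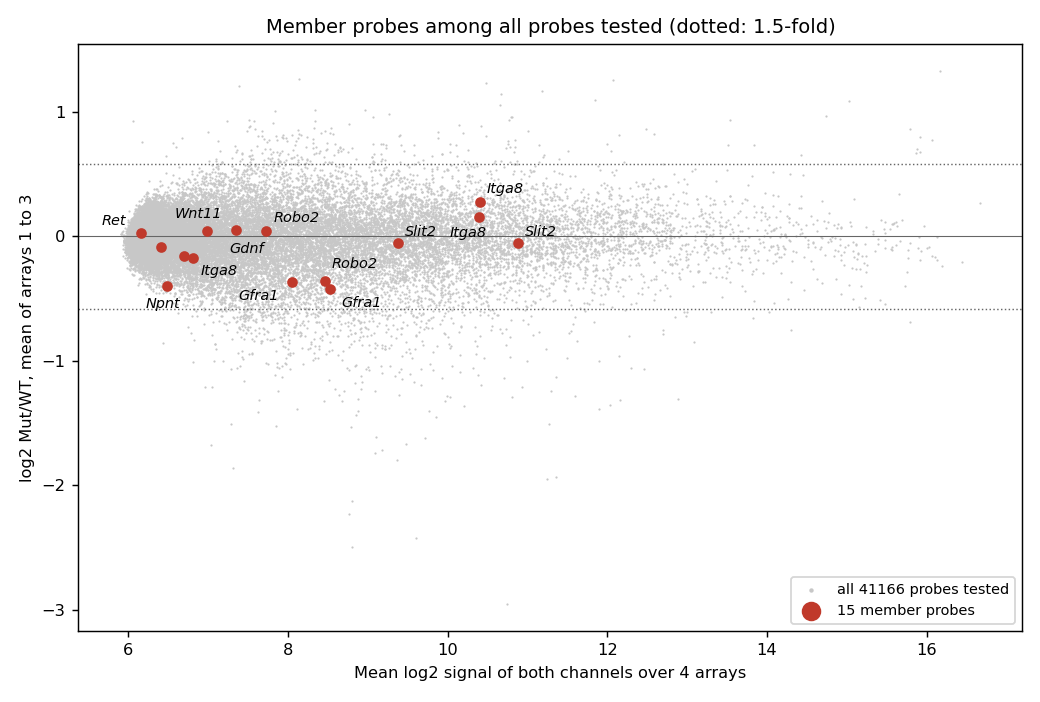
Mean log2 *Mut*/*WT* over arrays 1 to 3 (y axis) against the mean log2 signal (x axis) for all 41166 probes tested (grey) and the 15 probes of the 8 genes (red). *Ret* lies at the dim edge near 0, *Gfra1*, *Robo2* and *Npnt* lie on the lower side and the bright *Itga8* probes on the upper side under loess, all within the dotted lines at 1.5-fold.

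The level of *Gdnf* was set against that of every other named gene over the 8 channels, by the brightest probe of each of 9351 genes above background throughout. The median Pearson correlation was -0.10. Among those most like it were *Enpp2* (0.987), which encodes the lysophospholipase autotaxin, and *Zbtb8os* (0.969). The log2 *Mut*/*WT* was 0.09 at the *Enpp2* probe and 0.07 at the *Zbtb8os* probe. Among the other members the correlation ran from -0.39 at the *Npnt* probe with a bound to 0.60 at the second *Itga8* probe. The 8 channels come from 4 arrays and share pools, so these correlations describe the channels and carry no *P*.

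Around the members, 71 further genes of the pathway were listed in 8 groups by their role, of which 66 were matched, with 89 probes. Of these probes 12 (13.5%) were higher and 23 (25.8%) lower in *Mut* at an adjusted *P* under 0.05, beside 13.2% and 16.4% of all probes tested. With the dye term 1 of the 89 was higher and 1 lower at that threshold, beside 220 and 235 of all 41166 probes tested. Of the probes that passed as reported, 0 still passed with normexp without an offset, median centring or the methods' *t*-test. With the fold minimum, under the reported processing, 2 were called higher and 3 lower. The median was -0.03. Of the 12 higher probes, 8 turned lower when arrays were centred on their median without loess, which moved the median of the 89 probes to -0.33, and 3 turned lower with the dye term. The calls depended on single arrays: without array 1 there was 1 lower call, with *Osr1* at -0.46 and *Acvr2b* at -0.57, and without array 3 there were 5.

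The transcription factors that act on *Gdnf* in the mesenchyme had 14 probes of 12 genes, of which 2 were higher and 4 lower at an adjusted *P* under 0.05. *Osr1*, a factor of the early kidney mesenchyme, was called lower. At one probe the ratios were -1.06, -0.64 and -0.29 and averaged -0.66 (SE 0.11, adjusted *P* = 0.00074, limma) against -0.01 on the *WT* vs *WT* array, and -0.65 with the dye term, where it was not called. Its other probe averaged -0.35 (adjusted *P* = 0.00396). *Eya1*, a coactivator upstream of *Gdnf*, averaged 0.31 (adjusted *P* = 0.00207), or -0.34 without loess. *Pax8*, a factor of the nephric lineage, averaged 0.28 (adjusted *P* = 0.00287), or -0.01 without loess, beside 0.21 on the *WT* vs *WT* array. Of these genes *Eya1* and *Osr1* are also among the nephron progenitor markers and *Pax8* among those of differentiating nephrons, so they are no separate evidence.

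The relatives of GDNF and GFRA1 had 7 probes of 6 genes, with 0 higher and 2 lower at an adjusted *P* under 0.05 and none called. *Nrtn*, the ligand neurturin, averaged -0.23 (SE 0.051, adjusted *P* = 0.00542). *Gfra3*, a co-receptor, averaged -0.23 (SE 0.052, adjusted *P* = 0.00596). *Gfra4* averaged -0.13 at its bright probe (adjusted *P* = 0.104).

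Adaptors and kinases that carry the signal of RET had 19 probes of 13 genes, with 3 higher and 4 lower at an adjusted *P* under 0.05 and none called. *Gab1*, a docking protein, averaged -0.52 (SE 0.061, adjusted *P* = 0.000103). *Grb7*, an adaptor, averaged 0.50 (SE 0.053, adjusted *P* = 4.7e-05) and 0.10 without loess. The 3 probes of *Grb10*, a further adaptor, averaged -0.44, -0.03 and 0.24, so the gene has no single direction.

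Targets of RET and genes of the bud tip had 20 probes of 13 genes, with 4 higher and 5 lower at an adjusted *P* under 0.05. *Etv4*, a transcription factor induced by RET and by fibroblast growth factors, had ratios of -0.98, -0.86 and -0.85 that averaged -0.90 (SE 0.053, adjusted *P* = 1.07e-06, limma). It was -0.28 on the *WT* vs *WT* array, and it was still called lower with the dye term, at -0.62. *Lhx1*, which marks both the bud and the early nephron, averaged 0.69 (SE 0.056, adjusted *P* = 8.78e-06), 0.02 on the *WT* vs *WT* array and 0.67 with the dye term, and it was called higher in both fits, although *WT* pool 1 read 0.76 higher on the *WT* vs *WT* array than on array 1. Without loess *Lhx1* was 0.19 and not called. *Spry1*, an inhibitor of receptor tyrosine kinase signalling, averaged 0.56 (SE 0.059, adjusted *P* = 4.85e-05) but -0.06 without loess. *Etv5*, the relative of *Etv4*, was looked up after its values were seen and averaged -0.37 (adjusted *P* = 0.000435) at one probe and -0.02 (adjusted *P* = 0.851) at the other.

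Other members of the Slit and Robo family had 4 probes of 4 genes, with 0 higher and 2 lower at an adjusted *P* under 0.05. *Slit3* averaged -0.39 (SE 0.055, adjusted *P* = 0.000335) and *Slit1* -0.37 (SE 0.062, adjusted *P* = 0.00103). Both were below 0 on all 3 arrays, and both were under 1.5-fold. *Robo1* averaged -0.15 (adjusted *P* = 0.143).

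Partners of the integrin and of nephronectin had 7 probes of 5 genes, with 2 higher and 2 lower at an adjusted *P* under 0.05. *Frem2*, a matrix protein of the Fraser complex, was called higher at one probe, with ratios of 1.02, 0.85 and 0.48 that averaged 0.79 (SE 0.084, adjusted *P* = 5.29e-05, limma), beside 0.18 on the *WT* vs *WT* array, and it was 0.61 and not called with the dye term. Without loess *Frem2* was 0.33 at that probe and not called. At its other probe the mean was -0.17 (adjusted *P* = 0.0315), so both probes passed the adjusted *P* in opposite directions. *Itgb1*, the integrin chain that pairs with that of *Itga8*, averaged -0.51 (SE 0.074, adjusted *P* = 0.000353) at one probe and -0.02 (adjusted *P* = 0.81) at the other. *Fras1*, of the same complex as *Frem2*, averaged 0.41 (SE 0.051, adjusted *P* = 0.000145), or -0.13 without loess, but 0.57 on the *WT* vs *WT* array and -0.17 with the dye term.

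The BMP and GDF11 axis had 11 probes of 8 genes, with 0 higher and 4 lower at an adjusted *P* under 0.05. *Acvr2b*, a receptor of GDF11 and the activins, was called lower, with ratios of -1.06, -0.71 and -0.43 that averaged -0.73 (SE 0.092, adjusted *P* = 0.000148, limma) against -0.13 on the *WT* vs *WT* array. With the dye term it was -0.60 and not called. *Bmp4*, which limits budding, averaged -0.30 (SE 0.053, adjusted *P* = 0.00122), beside -0.14 on the *WT* vs *WT* array. *Bmp7*, a survival factor of the progenitors, averaged -0.17 (adjusted *P* = 0.0284) and -0.14 (adjusted *P* = 0.0552) at its 2 probes. Further growth factors and receptors of the bud had 7 probes of 5 genes, of which 1 probe, of *Nf1*, was higher at an adjusted *P* under 0.05 (mean 0.24, adjusted *P* = 0.00911, -0.11 without loess, and 0.25 on the *WT* vs *WT* array). The brighter *Nf1* probe averaged -0.10 (adjusted *P* = 0.219). *Fgfr2* (-0.09 at its brighter probe, adjusted *P* = 0.209, and 0.15 at the other, adjusted *P* = 0.0774) and *Fgf10* (-0.12, adjusted *P* = 0.145) did not pass.

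**Figure D4:**
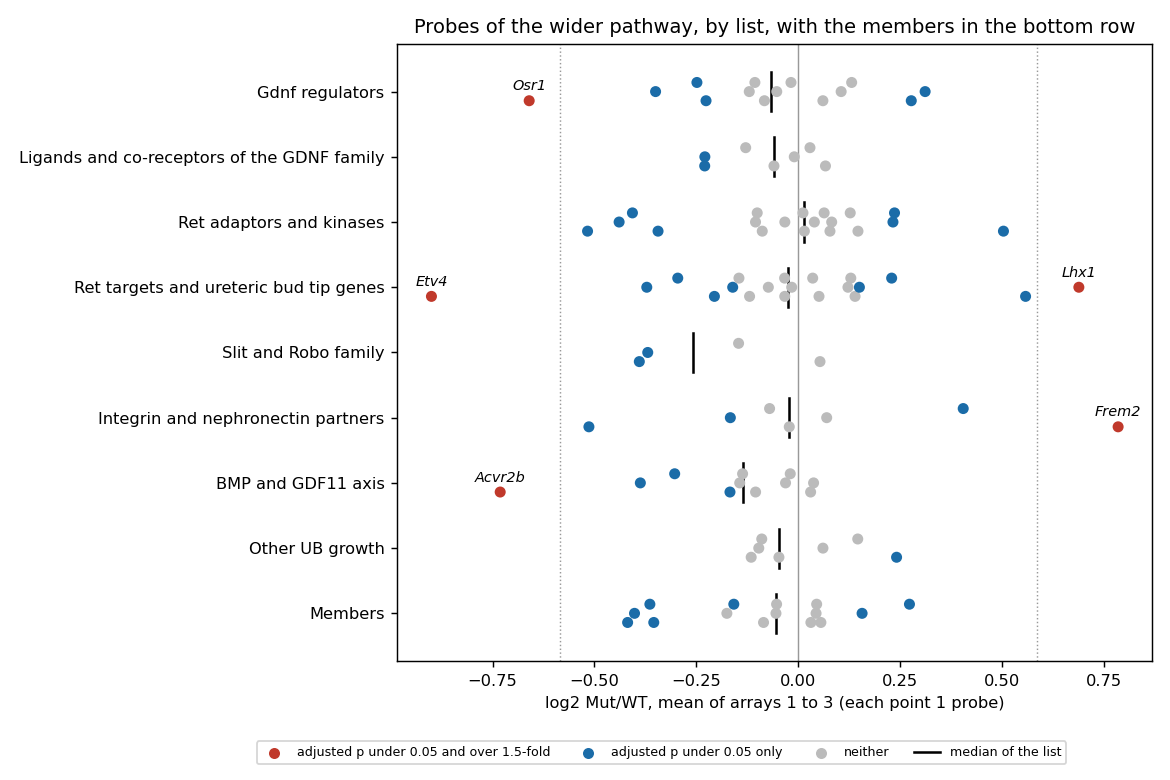
Mean log2 *Mut*/*WT* over arrays 1 to 3 (x axis) of each probe of the 8 lists of pathway genes and, in the bottom row, of the 15 member probes, with black lines at the medians and dotted lines at 1.5-fold. The 5 probes called (red) are of *Osr1*, *Etv4* and *Acvr2b* on the lower and *Lhx1* and *Frem2* on the upper side, and the members hold none.

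**Figure D5:**
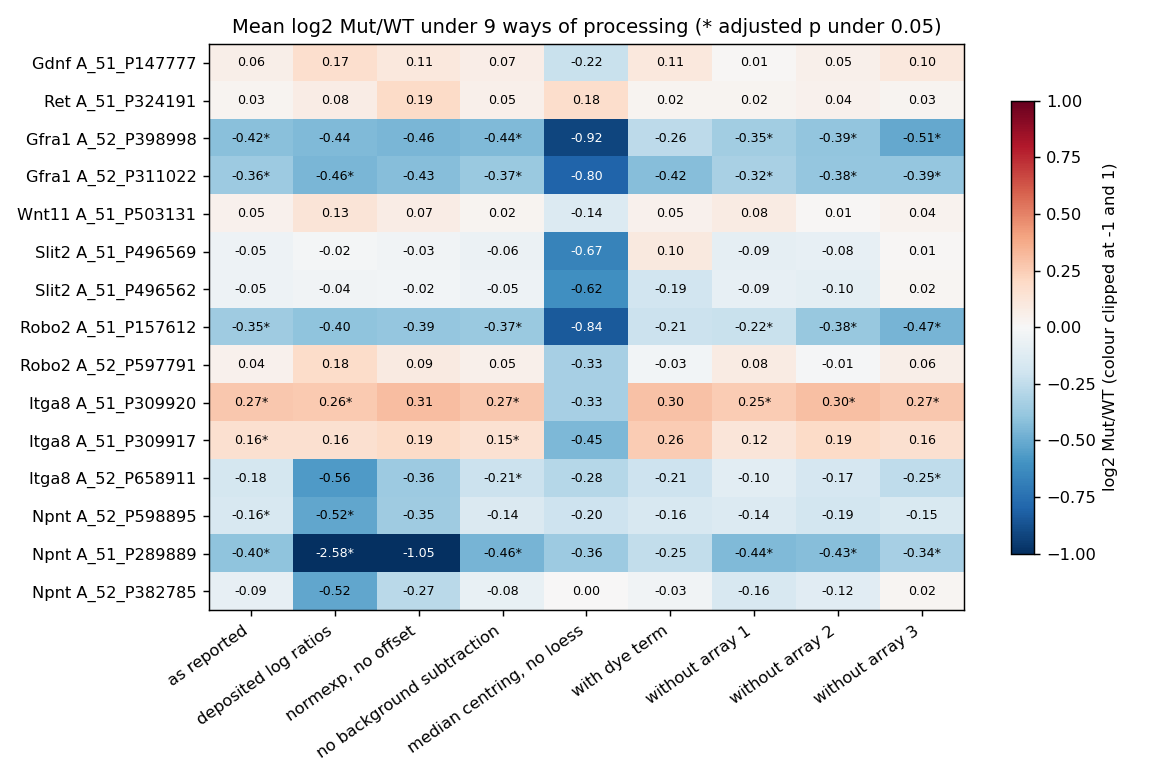
Mean log2 *Mut*/*WT* of each member probe (rows) under the reported processing and 8 alternatives (columns), with colour from -1 to 1 and a star at an adjusted *P* under 0.05. *Gfra1* is below 0 throughout, *Itga8* at its 2 bright probes turns from 0.27 and 0.16 to -0.33 and -0.45 when arrays are centred on their median without loess, and the *Npnt* probe that *Mut* channels did not measure above background runs from -0.25 to -2.58.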

How the data were processed

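The authors deposited intensity values per spot and channel, made with Agilent Feature Extraction 10.7.3.1. They are linear signals with a local background and no normalization. The deposited log10 ratios of red over green were made by the authors with the same program once background and dye had been corrected. A table of the series repeated all 180072 of them, to within 1e-06 as log2. Values from GeneSpring GX were not used here. From the median signals, the background was corrected by normexp (offset 50) on all spots, loess with control spots at weight 0 normalized the ratios of each array, and control spots and 122 to 162 outlier spots per array were left out. Spots of a probe were averaged, and ratios were turned to Cy3/Cy5. Channel levels are log2 signals after Aquantile normalization between arrays. Cy3 had a local background of 16 to 17 and Cy5 of 50, with negative control medians of 49.5 to 60.5, and 0 spots were saturated. The number of arrays limits the precision.

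Ratios were tested against 0 with limma 3.58.1 in R 4.3.3. Each ratio pairs the pools of an array, as the labels number them: over probes, the deviations of the *Mut* and the *WT* pool from the mean of their group correlated with r of 0.388, 0.431 and 0.320 on arrays 1, 2 and 3. The limma step was tested on simulated data. Where all channels of a group failed the background flag, no fold is read from the probe, and a bound is given where the other group was above background on all 3 arrays. Means of such probes under alternatives are fitted values. Symbols were looked up by accession in a GRCm38.p6 gene table for 22951 of 41174 probes and used for names only, since the array design was built on mm7, so no coordinates are given. *Hoxc11*, *Robo3*, *Srgap1*, *Frem1* and *Kif26b* of the pathway lists and *Csf1r* and *Cd68* among the markers found no probe. The members, the lists and the tests were chosen with earlier results of these data known. Named genes are all members, *Atp6ap2*, pathway genes with a probe called and at most 3 per group with the largest absolute ratio above background in both channels, and the 3 genes most like *Gdnf*, of which 1 is not reported here. Of the marker lists, 0 of 7 endothelial probes and 1 of 8 macrophage probes reached an adjusted *P* under 0.05. Alternatives covered the values, the background correction, the normalization, outlier spots, dim probes, a dye term, unpaired channels, each array left out, the methods' *t*-test (named there for their statistics in general, whereas for the arrays they give GeneSpring GX), the fold minimum and, for genes with several probes, their median.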

Additional observations from a re-analysis of the deposited data

How the results depend on the processing

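Of the 178 values of single member probes under alternatives, 12 turned sign. Of the 12 alternatives, the adjusted *P* was under 0.05 in 7 and 8 for the *Gfra1* probes, 7 for *Robo2* (A_51_P157612), 8 and 3 for the bright *Itga8* probes, 3 for the dimmest, which missed it as reported, and 3 and 8 for the *Npnt* probes A_52_P598895 and A_51_P289889. With median centring in place of loess the means were -0.22 for *Gdnf*, -0.14 for *Wnt11*, -0.33 for *Robo2* (A_52_P597791), -0.33 and -0.45 for *Itga8* and 0.0042 for *Npnt* (A_52_P382785), which no *Mut* channel measured above background, so that its values give no direction. Median centring lowered the mean at each member probe well above background in all 8 channels. The shift was from -0.05 to -0.67 at the bright *Slit2* probe (A_51_P496569). At the dim *Npnt* probe (A_52_P598895) it was from -0.16 to -0.20, so a turn of sign there is not particular to a gene. With the dye term the means were 0.10 for *Slit2* (A_51_P496569) and -0.0252 for *Robo2* (A_52_P597791). With 1 array left out, *Slit2* ran from -0.0866 to 0.0104 and from -0.10 to 0.0171, *Robo2* (A_52_P597791) from -0.0144 to 0.0841 and *Npnt* (A_52_P382785) from -0.16 to 0.0195. Counts of member probes called lower were 1 with the deposited log ratios and 5 with no fold minimum, and 2 were then called higher. Pathway probes called higher and lower numbered 0 and 0 with normexp without an offset, with median centring and with the methods' *t*-test, 1 and 1 with the dye term, 12 and 23 with no fold minimum, and 2 to 3 and 1 to 5 with 1 array left out. The median of the members was -0.33 with median centring and -0.0950 to 0.0171 with 1 array left out. That of the pathway probes was -0.0879 with the deposited log ratios, -0.0637 with normexp without an offset, -0.0749 without background subtraction, -0.33 with median centring, -0.0648 for probes above background, -0.0697 with the dye term and -0.0502 to -0.0331 with 1 array left out. The causes were not tested. The replicate block is the array: without the pairing 225 probes were called higher and 599 lower, and the counts of member and pathway calls were as with it (0 and 0, 2 and 3). Over all probes, 216 to 290 were called higher and 390 to 917 lower with 1 array left out, 146 and 177 with the dye term, 0 and 0 with normexp without an offset, with median centring or with the methods' *t*-test, against 4865 higher and 5131 lower by that *t*-test at an unadjusted *P* under 0.05.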
